A study of Homo sapiens with 12 samples.

Results

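RBM4, SF1, RNPS1, TRA2A, SRSF7 and SON are 6 genes whose products act in pre-mRNA splicing. The splicing of their own cassette exons was compared between cells given an siRNA against the acetyltransferase TIP60 and cells given a control siRNA. A cassette exon is an exon that is either kept in the mature transcript or skipped. Every listed event whose middle exon matched a GENCODE exon of 1 of the 6 genes was taken, which gave 12 events over 9 distinct exons, out of 8712 events listed in any library. All 12 member events were listed in all 12 libraries, as were 4992 events in total. Of these, 2695 events, including 9 of the 12 member events, had at least 10 reads in each library that fit 1 of the 2 forms and not the other, and could be tested for inclusion.

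The cells were MCF10A, a non-tumorigenic line of human breast epithelial cells, grown as bulk cultures. They stably carried either the empty MSCV vector, wild-type TIP60 or catalytically dead TIP60, and both TIP60 constructs were made resistant to the siRNA. Each of these 3 lines received a control siRNA or a TIP60 siRNA and was harvested 72 h later, with 2 libraries, numbered 1 and 2, for each of the 6 groups. The labels do not say whether the 2 libraries came from separate cultures, so p-values measure the spread between these libraries, which may be technical. No clone, promoter or expression level of the constructs is stated in the labels. Levels are given in RPM, reads per 1000000 reads of the library that fit at least 1 form of a listed event. TIP60 is the protein of KAT5. In the lines with a TIP60 construct, reads of the KAT5 form without its cassette exon reached 885 to 2291 RPM in libraries numbered 1. In libraries numbered 2 of these lines they reached 28.2 to 93.0 RPM, and with the empty vector 0 to 8.38 RPM. With wild-type TIP60 they were 2291 and 93.0 RPM under control siRNA and still 1654 and 76.8 under TIP60 siRNA (libraries 1 and 2). With catalytically dead TIP60 they were 988 and 35.1 against 885 and 28.2. KAT5 reads thus remained high in these lines under TIP60 siRNA, though lower in every pair. The form with the exon was therefore used to check the depletion. Its reads were lower with TIP60 siRNA in every pair of same-numbered libraries. They went from 17.2 to 2.52 RPM and from 5.84 to 1.52 RPM with the empty vector, from 11.6 to 2.74 and from 5.31 to 1.34 with wild-type TIP60, and from 12.02 to 3.95 and from 6.38 to 0 with catalytically dead TIP60. The upper limit that a count of 0 allows in that last library is 3 reads. All these levels rest on few reads, 8 to 37 per library with control siRNA and 0 to 9 with TIP60 siRNA.

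Libraries held between 1277953 and 2280488 reads that fit at least 1 form of a listed event. The libraries numbered 2 had fewer listed events than those numbered 1, and a larger share of their event reads fitted neither form, between 64.5% and 65.7% against 50.1% to 53.2%. The events of 5 of 10 epithelial marker genes summed to 2445 to 4531 RPM in every library, with ITGB4 and ESRP1 among them, while KRT5, KRT14, KRT17, EPCAM and GRHL2 have no listed event and cannot be seen. None of 5 immune markers has a listed event. Of 7 mesenchymal markers only FN1 and ZEB1 have events. ZEB1 lay between 0 and 12.3 RPM. FN1 reads were higher with TIP60 siRNA in 6 of 6 pairs, by 1.602 to 3.46 times, and ranged from 21.3 to 816 RPM with control siRNA and from 34.1 to 2469 with TIP60 siRNA; the part of that change in the splicing results was not tested.

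Splicing is carried out by the spliceosome, which first recognises the ends of an intron and its branch point. SF1 binds the branch point before the U2 particle does. SR proteins and their relatives, among them SRSF7, the SR-like TRA2A and the large nuclear speckle protein SON, bind exonic sequence or scaffold the machinery and mostly help exons to be kept. RNPS1 belongs to the protein set that marks exon junctions and links splicing to mRNA export and quality control. RBM4 binds RNA through RNA recognition motifs and a zinc knuckle and regulates exon choice and translation. Many such genes control their own transcripts by alternative splicing, often through exons that introduce a premature stop codon.

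The inclusion level used throughout is the fraction of transcripts that keep the exon, from 0 to 1, as the authors estimated it with MISO, which weighs reads by the length of both forms. The exons differed in whether their length is a multiple of 3. Of the 9 distinct exons, 5 have a length that is not (RBM4, SF1, TRA2A 301 nt, and RNPS1 188 nt and 142 nt). For the other 4 it is (SRSF7 36 nt, SON 5916 nt, TRA2A 90 nt and RNPS1 63 nt). Length alone does not settle the effect on the reading frame. The TRA2A 90-nt exon ends the frame by a stop codon, the RNPS1 63-nt exon lies in the 5′ UTR, and the RNPS1 188-nt exon carries the start codon. Over the tested events with an exon in GENCODE, 43.9% of exons had a length that is not a multiple of 3. The sequences below, from the GENCODE 29 transcripts on GRCh38 and written 5′ to 3′ on the coding strand, are coding stretches of the 3 exons whose inclusion was lower in every pair, and the SRSF7 exon. Capitals mark the stop codon that ends the RBM4 reading frame inside the cassette exon and the start codon that lies inside the RNPS1 exon. They come from chr11:66644040-66644132 (+), chr11:64765951-64766155 (-), chr16:2264573-2264643 (-) and chr2:38746144-38746179 (-), in that order.
RBM4 exon, last coding bases and stop: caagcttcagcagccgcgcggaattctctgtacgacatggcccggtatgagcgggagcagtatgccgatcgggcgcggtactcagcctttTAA
SF1 205-nt exon: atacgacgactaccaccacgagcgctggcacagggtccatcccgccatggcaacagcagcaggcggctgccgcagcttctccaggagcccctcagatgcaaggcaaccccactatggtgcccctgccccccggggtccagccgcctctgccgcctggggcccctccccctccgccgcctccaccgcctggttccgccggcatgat
RNPS1 188-nt exon, coding part: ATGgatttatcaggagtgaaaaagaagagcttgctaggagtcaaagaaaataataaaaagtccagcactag
SRSF7 36-nt exon: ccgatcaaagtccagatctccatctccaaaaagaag

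Averaged over the 3 lines, the large coding exon of RBM4 was included less often after TIP60 siRNA. No single line passed the main limma test on its own. The cassette exon is 691 nt long, at chr11:66643450-66644140 (+), of gene ENSG00000173933.20. It is exon 3 of 4 in the principal transcript and ends the reading frame, 8 nt before the last exon junction. With the exon, the frame from the annotated start codon runs for 1092 nt. Without it the frame meets a stop in the last exon after 429 nt, and GENCODE annotates such a shorter protein-coding form. Neither form has a stop more than 50 nt upstream of its last junction, the position that usually marks a message for nonsense-mediated decay.

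The exon before the cassette is RBM4's own first coding exon, called its own first exon below although it is not the transcript's first. Counted from that exon, inclusion was 0.84 and 0.80 with the empty vector and control siRNA, and 0.62 and 0.64 with TIP60 siRNA. With wild-type TIP60 it was 0.74 and 0.82 under control siRNA and 0.58 and 0.71 under TIP60 siRNA. With catalytically dead TIP60 it was 0.80 and 0.85 against 0.64 and 0.70. All 6 TIP60 siRNA libraries (0.58 to 0.71) lay below all 6 control libraries (0.74 to 0.85), a separation in that direction seen for 2.6% of the 2695 tested events. Averaged over the 3 lines, inclusion fell by 0.16 (SE 0.0274, limma adjusted p = 0.0377, 6 of 6 pairs lower), and with the library number as a block the adjusted p was 0.0165.

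Reads that fit only the skipped form were 25 and 73 with the empty vector and control siRNA, and 54 and 147 with TIP60 siRNA. They were 25 and 79 against 62 and 153 with wild-type TIP60, and 32 and 83 against 43 and 131 with catalytically dead TIP60. In RPM, the skipped form was higher in 6 of 6 pairs, by 1.23 to 2.34 times with a median of 2.02. The form with the exon was lower in 5 of 6 pairs, with ratios from 0.668 to 1.04. No change in the reads of the whole event was detectable: its RPM averaged 960 with control siRNA and 914 with TIP60 siRNA, and the log2 difference averaged over the lines was -0.09 (SE 0.34, limma adjusted p = 0.99). In bulk RNA, fewer cells that carry a transcript and less of it per cell cannot be told apart.

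**Figure D1:**
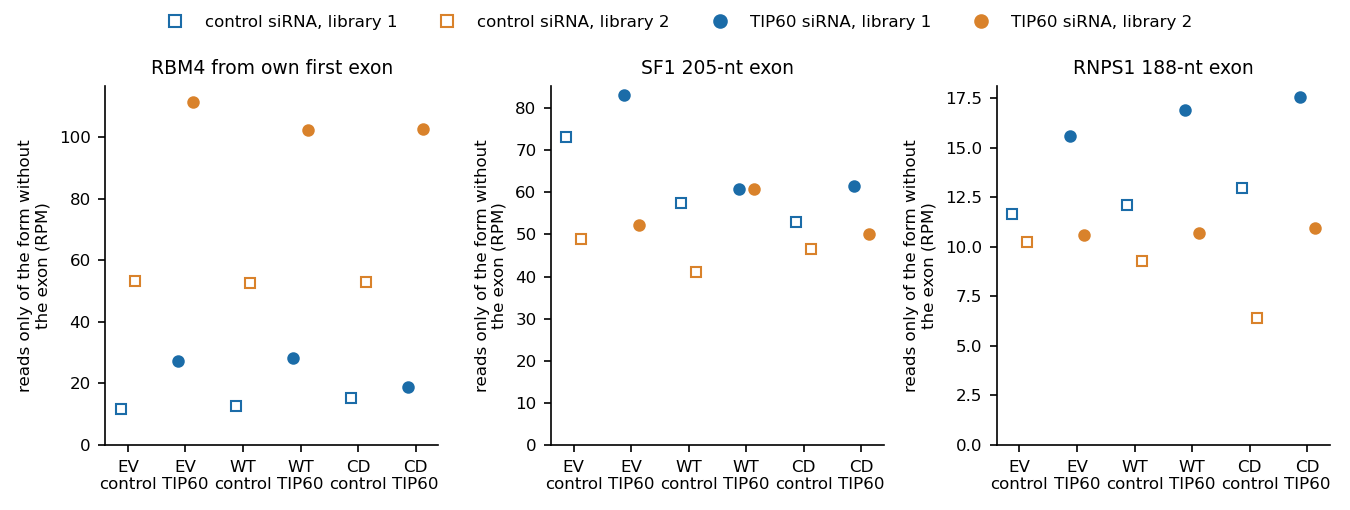
Reads that fit only the form without the cassette exon, in RPM, reads per 1000000 event reads of the library (y axis, from 0), in the 6 groups (x axis; EV, empty vector; WT, wild-type TIP60; CD, catalytically dead TIP60; control and TIP60 name the siRNA). Each point is 1 library, squares for control siRNA and circles for TIP60 siRNA, blue for libraries numbered 1 and orange for those numbered 2. For RBM4, SF1 and the RNPS1 188-nt exon the TIP60 siRNA library lies above the control library of the same line and number in 6 of 6 pairs, and for RBM4 the libraries numbered 2 stand far above those numbered 1.

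The same RBM4 exon was also listed after the first exon of the neighbouring gene RBM14, an arrangement that belongs to the annotated read-through transcript RBM14-RBM4. This event shares the cassette exon, and so most of its inclusion reads, with the one above and is not independent of it. Its inclusion level therefore does not measure exon use among read-through transcripts alone. Inclusion was 0.99 and 0.98 against 0.91 and 0.92 with the empty vector, 0.97 and 0.98 against 0.93 and 0.96 with wild-type TIP60, and 0.99 and 0.99 against 0.89 and 0.94 with catalytically dead TIP60. The TIP60 siRNA libraries (0.89 to 0.96) again lay below every control library (0.97 to 0.99). The averaged fall was 0.058 (SE 0.00962, limma adjusted p = 0.036, 6 of 6 pairs lower), with an adjusted p of 0.0185 with the block. Few reads stand behind it: the skipped form had 0 to 4 reads in the control libraries and 2 to 14 in the TIP60 siRNA libraries. The 0 reads of 2 control libraries allow a share of form-specific reads of up to 0.448% and 0.496%. That share is not corrected for the exon's length, and the MISO interval of both libraries reached down to an inclusion of 0.95. RBM4B, a close paralog next to RBM4, could share reads with both events, so the RBM4 values are uncertain to that extent.

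These RBM4 events were the 2 of 9 tested member events called for the averaged siRNA difference, and both are the same exon. Of all tested events 2.15% were called in either direction and 1.89% in the lower direction. With the block the RBM4 events were again the 2 called, against 4.27% of all tested events. Members were chosen with earlier results of these data known, so these shares do not test for an excess among them. Both calls lie close to the threshold of 0.05 and did not hold throughout. Without the block, leaving out a single library ended each of them in 11 of 12 cases, with limma adjusted p up to 0.121 for the own and 0.11 for the RBM14 first exon; the exceptions were wild-type TIP60 siRNA library 2 and catalytically dead TIP60 siRNA library 2. A quasi-binomial model of the reads was chosen after seeing the data. In that model without the block, 0 of the 9 passed, against 1.97% of all tested events (adjusted p = 0.0677 for the own first exon and 0.0764 for the RBM14 first exon). With the block the same model gave 0.00636 and 0.0546, and called 3 of the 9 (RBM4 from its own first exon, SF1 and the RNPS1 188-nt exon), against 6.09% of all tested events. On the plain ratio of form-specific reads, which is not corrected for the exon's length, the averaged fall was 0.052 for the own first exon and 0.0074 for the RBM14 first exon. Without the block neither passed by limma (adjusted p = 0.179 and 0.118). With the block, a fit also chosen after seeing the data, the limma adjusted p was 0.0418 and 0.045.

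Within single lines no member event passed by limma on the inclusion level, with or without the block. On log2 odds with the block, a fit chosen after seeing the data, RBM4 from the RBM14 first exon passed with catalytically dead TIP60. For RBM4 from its own first exon the differences were -0.19 (SE 0.0474, limma adjusted p = 0.336) with the empty vector, -0.135 (adjusted p = 0.965) with wild-type TIP60 and -0.155 (adjusted p = 0.432) with catalytically dead TIP60. Only 1, 0 and 1 of the 2695 events were called in these comparisons, or 0.0371%, 0% and 0.0371%; with the block 0.148%, 0.148% and 0.371% were called, no member event among them. No difference of the RBM4 effect between lines was detectable: the siRNA effect with the siRNA-resistant wild-type TIP60 minus that with the empty vector was 0.055 (SE 0.067, limma adjusted p = 1). The effect with catalytically dead TIP60 minus that with wild-type TIP60 was -0.02 (SE 0.067, adjusted p = 1).

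**Figure D2:**
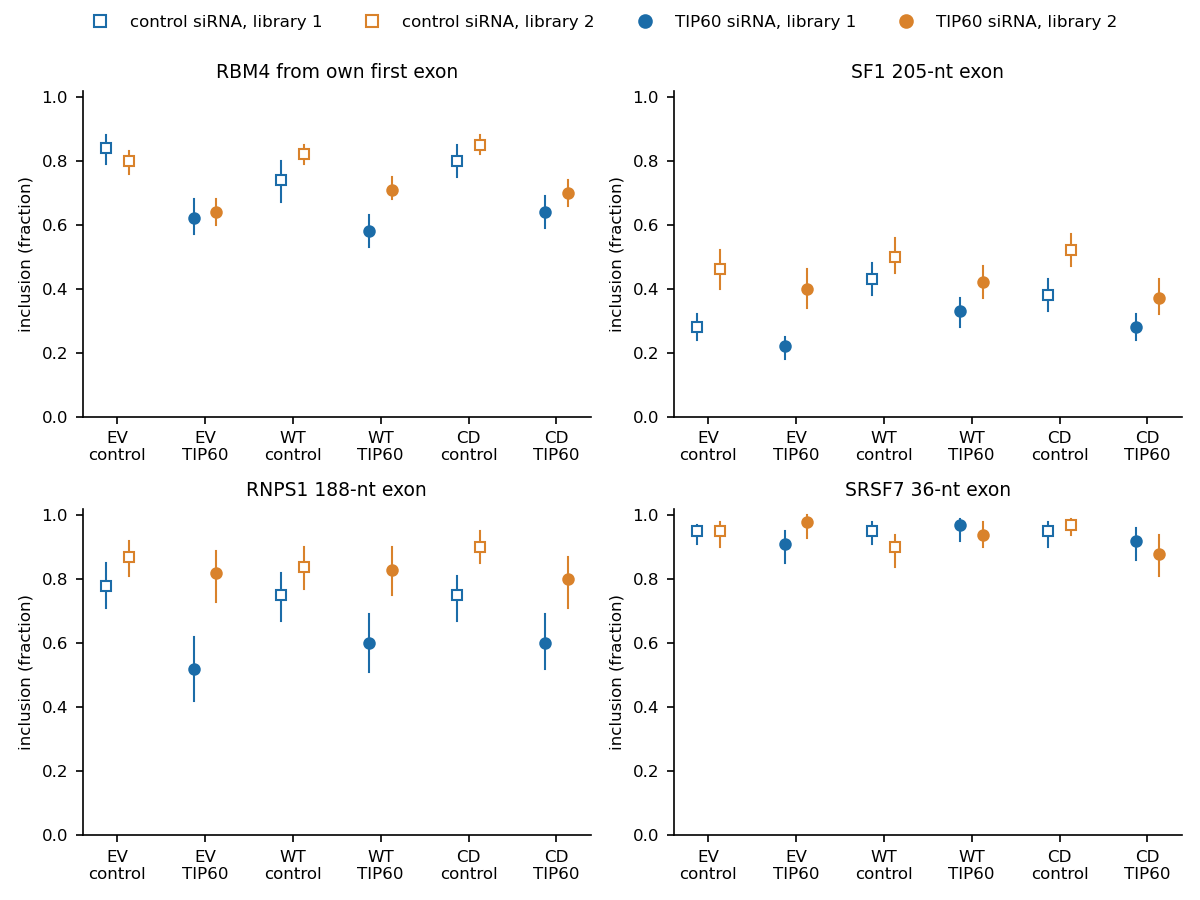
Inclusion level (y axis, fraction from 0 to 1) of 4 member exons in the 12 libraries, by group (x axis, with EV for empty vector, WT for wild-type and CD for catalytically dead TIP60, above the siRNA). Points are single libraries and vertical bars the MISO interval, taken as 95%; the RBM4 values with TIP60 siRNA (0.58 to 0.71) lie below all control values, the RNPS1 falls are larger in libraries numbered 1, and SRSF7 stays between 0.88 and 0.98.

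SF1, the branch point binding protein, kept its 205-nt exon less often with TIP60 siRNA in each of the 6 pairs, but the spread between libraries exceeded the difference unless the numbers were used as a block. The exon lies at chr11:64765951-64766155 (-) in gene ENSG00000168066.20 and is exon 13 of 14, with short introns of 744 nt before and 432 nt after. At 70.7% GC it is richer in G and C than most: the median over tested exons was 51.0%, with quartiles of 43.7% and 58.6%. With the exon the reading frame runs for 1914 nt and without it for 1644 nt, ending in the last exon at different stop codons. Both C-terminal forms are annotated as protein-coding.

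SF1 inclusion was 0.28 and 0.46 against 0.22 and 0.40 with the empty vector (control against TIP60 siRNA, libraries 1 and 2). It was 0.43 and 0.50 against 0.33 and 0.42 with wild-type TIP60, and 0.38 and 0.52 against 0.28 and 0.37 with catalytically dead TIP60. The groups overlap, since the libraries numbered 1 (mean 0.32) sit below those numbered 2 (mean 0.445) under both siRNAs. The averaged difference was -0.092 (SE 0.0501, limma adjusted p = 0.581), and with the block its SE was 0.0181 and the adjusted p 0.0503. The quasi-binomial read model with the block, chosen after seeing the data, gave an adjusted p of 0.0239. Reads of the form with the exon were lower in 6 of 6 pairs (0.627 to 0.919 times) and those of the form without it higher in 6 of 6 (1.06 to 1.48 times), while the event's total RPM averaged 964 with control siRNA and 942 with TIP60 siRNA.

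Between the constructs under control siRNA, SF1 inclusion averaged 0.37 ± 0.127 (SD, n = 2) with the empty vector, 0.465 ± 0.0495 with wild-type TIP60 and 0.45 ± 0.099 with catalytically dead TIP60. No difference of either construct from the empty vector was detectable by limma with n = 2 a group (adjusted p = 1 for both, with and without the block). Inclusion was higher with each construct than with the empty vector in both same-numbered comparisons. No member event was called in either comparison between constructs, nor was any of the 2695 events (0%); the same holds for the 3 comparisons of the siRNA effect between lines.

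RNPS1 has 3 listed exons, of which 2 could be tested and neither passed. The 188-nt exon, at chr16:2264573-2264760 (-) in gene ENSG00000205937.11, is exon 2 of 8 and carries the start codon of the principal form, whose frame runs for 915 nt. Protein-coding transcripts annotated without it start translation at position 2268056, and the exon before ends at 2268055, so their start codon spans the skipping junction. Their coding lengths are 846 and 771 nt, and the 771-nt form also lacks the 142-nt exon. Its inclusion was 0.78 and 0.87 against 0.52 and 0.82 with the empty vector, 0.75 and 0.84 against 0.60 and 0.83 with wild-type TIP60, and 0.75 and 0.90 against 0.60 and 0.80 with catalytically dead TIP60. Inclusion was lower in 6 of 6 pairs, with a fall averaging 0.187 among libraries numbered 1 and 0.053 among those numbered 2.

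The averaged difference of the RNPS1 188-nt exon was -0.12 (SE 0.0727, limma adjusted p = 0.651; with the block SE 0.0308 and adjusted p = 0.0942), so it did not pass. The quasi-binomial read model with the block, chosen after seeing the data, gave an adjusted p of 0.0399. The reads behind it are few: the skipped form had 10 to 40 reads per library. Reads of the form with the exon were lower in 6 of 6 pairs, by ratios from 0.443 to 0.963, and those of the skipped form were higher in 6 of 6, from 1.04 to 1.72 times. Total reads of the event were also lower in 6 of 6 pairs, by a log2 average of -0.31 (SE 0.265, limma adjusted p = 0.828). Those of the RNPS1 142-nt event were higher in 5 of 6 pairs, with ratios from 0.971 to 1.17, so the events of this gene showed no common fall.

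The RNPS1 142-nt exon, at chr16:2255585-2255726 (-), is coding and shifts the frame, so that its loss moves the stop codon within the last exon and shortens the frame from 915 to 840 nt. It was kept nearly always, with inclusion from 0.95 to 1.00, and 0 to 9 reads per library fitted the skipped form. Its averaged difference was -0.005 (SE 0.0089, limma adjusted p = 0.989). The 63-nt exon at chr16:2267175-2267237 (-) lies in the 5′ UTR. It had no inclusion read in 11 of 12 libraries and 1 in the other, with 2 to 29 reads for the form without it, too few to test. In the deepest library at 0, 27 reads allow a share of form-specific reads of up to 11.1%.

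**Figure D3:**
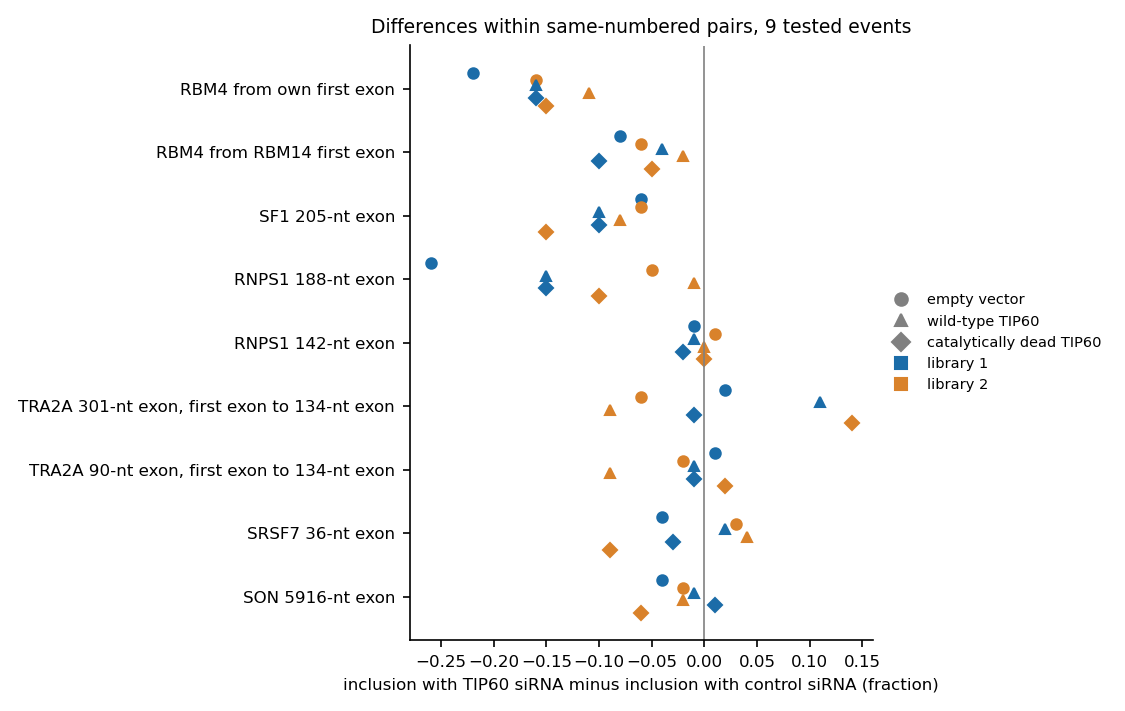
Inclusion with TIP60 siRNA minus inclusion with control siRNA (x axis, fraction) within each pair of libraries of the same line and number, for the 9 tested member events (rows). Circles are the empty vector, triangles wild-type TIP60 and diamonds catalytically dead TIP60; blue is library 1 and orange library 2. All 6 points lie left of 0 for both RBM4 events, SF1 and the RNPS1 188-nt exon, and they fall on both sides for the TRA2A and SRSF7 exons.

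Counted over pairs, inclusion was lower with TIP60 siRNA in 6 of 6 for 4 of the 9 tested member events, against 9.46% of all tested events, and higher in 6 of 6 for 0 of the 9, against 2.34%. The 4 events cover 3 exons, since RBM4 counts under both first exons. All 3 have lengths that are not a multiple of 3, as do the RNPS1 142-nt and TRA2A 301-nt exons, which did not share the pattern. Because members were chosen with earlier results of these data known, these shares do not test for an excess among them. The median averaged difference was -0.02 for the 9 member events and -0.0067 over all 2695 events, of which 1676 lay below 0. The member median is the value of the SON event, whose inclusion estimates rest on included reads almost alone. The RBM4 exon enters it under both first exons. It is therefore no measure of a shift among the members.

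**Figure D4:**
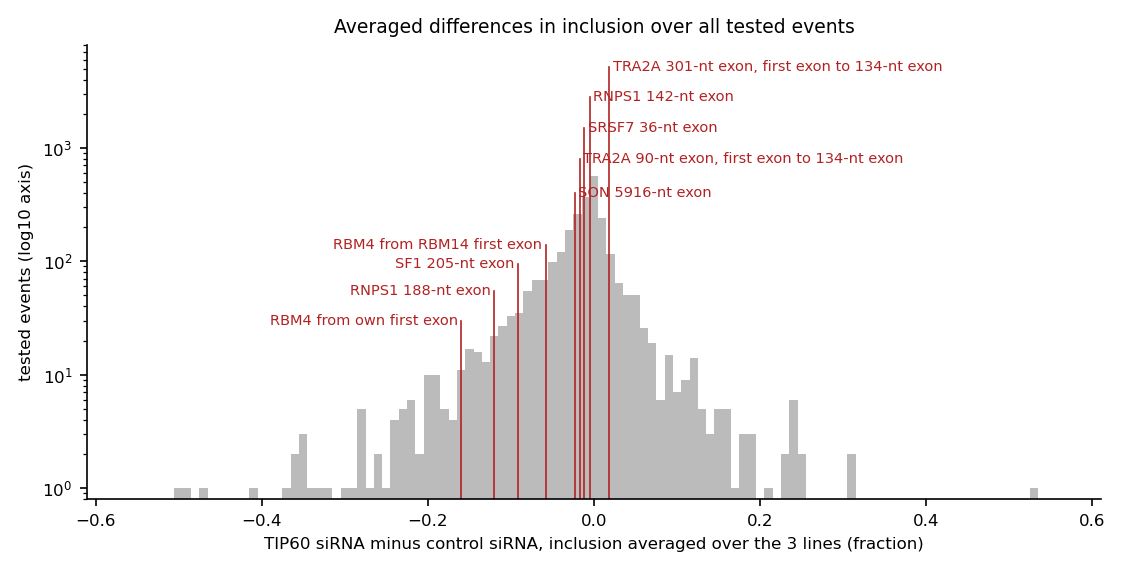
Averaged difference in inclusion, TIP60 siRNA minus control siRNA (x axis, fraction), over the 2695 tested events (grey bars, number of events on a log10 axis), with the 9 tested member events marked by red lines whose height carries no value. RBM4 from its own first exon lies at -0.16, RNPS1 188 nt at -0.12, SF1 at -0.092 and RBM4 from the RBM14 first exon at -0.058, and the other 5 lie near 0.

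TRA2A, an SR-like activator of exons rich in GAA repeats, has 2 alternative exons between its first exon and a shared 134-nt exon. The 301-nt exon, at chr7:23522132-23522432 (-) in gene ENSG00000164548.10, shifts the frame. Spliced after the first exon, it ends the reading frame after 177 nt, at a stop 959 nt before the last junction, where the form without it runs for 846 nt. The 90-nt exon, at chr7:23531181-23531270 (-), keeps the frame by length but ends it after 36 nt. In the annotated transcripts that contain them, both exons are 5′ UTR and a start codon further down gives 540 nt of coding sequence. The 301-nt exon is AT-rich (30.2% GC) and contains GAAGAA at 4 positions on the coding strand, overlaps counted; of 125 tested exons within 20% of its length, 16.8% hold this motif at least once.

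Inclusion of the TRA2A 301-nt exon after the first exon was 0.10 and 0.19 against 0.12 and 0.13 with the empty vector, 0.07 and 0.25 against 0.18 and 0.16 with wild-type TIP60, and 0.11 and 0.09 against 0.10 and 0.23 with catalytically dead TIP60. The values cross without a common direction, with an averaged difference of 0.02 (SE 0.0381, limma adjusted p = 0.991). The 90-nt exon was kept at 0.02 to 0.15 when spliced between the first exon and the 134-nt exon (averaged difference -0.02, SE 0.0236, adjusted p = 0.967). The other 2 listed arrangements, which join the 90-nt and 301-nt exons, had as few as 7 and 5 form-specific reads in a library and were not tested.

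Between the first exon and the 301-nt exon, inclusion of the TRA2A 90-nt exon was 0.08 and 0.13 against 0.06 and 0.18 with the empty vector, 0.33 and 0.25 against 0.11 and 0.16 with wild-type TIP60, and 0.21 and 0.26 against 0.07 and 0.06 with catalytically dead TIP60. It was lower with TIP60 siRNA in 5 of 6 pairs, with a median difference of -0.115, and the control (0.08 to 0.33) and TIP60 siRNA (0.06 to 0.18) libraries overlapped. Only 0 to 13 reads per library fitted the form with the exon. Inclusion of the TRA2A 301-nt exon between the 90-nt and 134-nt exons ranged from 0.29 to 0.74 and was lower with TIP60 siRNA in 4 of 6 pairs, with 0 to 2 reads per library for the form without it.

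TRA2A event reads were low, between 28.2 and 85.2 RPM for the 301-nt event from the first exon. They were 85.2 and 43.8 against 31.7 and 31.1 with the empty vector, 44.9 and 47.8 against 47.1 and 48.7 with wild-type TIP60, and 69.7 and 40.9 against 44.3 and 28.2 with catalytically dead TIP60. The TIP60 siRNA libraries were lower in both pairs with the empty vector and with catalytically dead TIP60, and slightly higher in both with wild-type TIP60. The averaged log2 difference was -0.50 (SE 0.288, limma adjusted p = 0.658; with the block adjusted p = 0.12), and the effect with wild-type TIP60 minus that with the empty vector was 1.00 (SE 0.706, unadjusted p = 0.192, adjusted p = 1), so neither passed.

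SRSF7, an SR protein that also acts in mRNA export, has a 36-nt coding exon at chr2:38746144-38746179 (-) in gene ENSG00000115875.18. It is exon 7 of 8 and keeps the frame, so the coding length is 714 nt with it and 678 nt without. Inclusion was 0.95 and 0.95 against 0.91 and 0.98 with the empty vector, 0.95 and 0.90 against 0.97 and 0.94 with wild-type TIP60, and 0.95 and 0.97 against 0.92 and 0.88 with catalytically dead TIP60. The exon was kept more often in both pairs with wild-type TIP60 and less often in both with catalytically dead TIP60. The difference between those effects was -0.09 (SE 0.0409, unadjusted p = 0.0634, limma adjusted p = 1) and did not pass. Only 1 to 14 reads per library fitted the skipped form.

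SON, a scaffold of nuclear speckles needed for efficient splicing of weak introns, has its cassette event at the 5916-nt exon that holds most of its coding sequence, chr21:33549476-33555391 (+) in gene ENSG00000159140.19. Skipping it would shorten the frame from 7278 to 1362 nt without shifting it. Skipping was hardly seen: 11 of 12 libraries had 0 reads of the skipped form beside 921 to 5991 reads of the included form, which allows a share of reads of up to 0.0501% to 0.326%, and the other had 1. The MISO estimates of 0.89 to 0.97 thus rest on included reads almost alone. The lowest value, 0.89, belongs to the library with the fewest reads, and the averaged difference was -0.02 (SE 0.0155, limma adjusted p = 0.711).

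SON event reads were 1693 and 2916 RPM against 646 and 2142 with the empty vector, 3046 and 1650 against 2153 and 1460 with wild-type TIP60, and 2560 and 1640 against 2454 and 721 with catalytically dead TIP60. They were lower with TIP60 siRNA in 6 of 6 pairs, with ratios from 0.381 to 0.959, but libraries of 1 group differed by as much or more (646 and 2142 RPM with the empty vector and TIP60 siRNA). The averaged log2 difference was -0.63 (SE 0.415, limma adjusted p = 0.732; with the block adjusted p = 0.274). Over the member events, reads were lower in 6 of 6 pairs for 3 of 12 (SON and the RNPS1 188-nt and 63-nt exons), near the 18.7% of all 4992 events. The RNPS1 63-nt event has the 188-nt exon as the exon after it, so it is not independent of the 188-nt event. None of the 12 passed in any comparison of event reads, with or without the block, where 0.741% and, with the block, 16.8% of events were called for the averaged effect. With the block, 3.08% of events were called with the empty vector, 0.02% with wild-type TIP60 and 2.84% with catalytically dead TIP60, again without a member event.

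**Figure D5:**
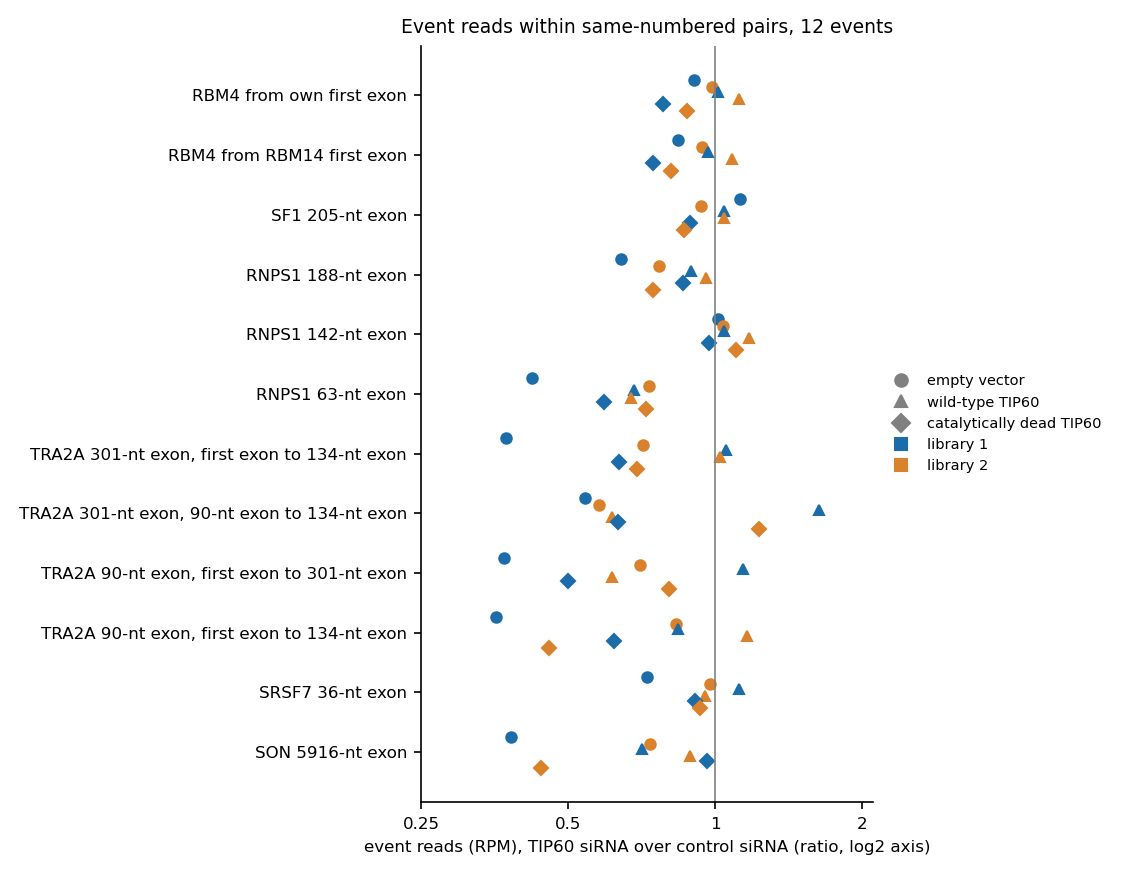
Event reads (RPM) with TIP60 siRNA over control siRNA within pairs of the same line and number (x axis, ratio on a log2 scale) for all 12 member events (rows), with the symbols of the plot of inclusion differences. The points for SON and the RNPS1 188-nt and 63-nt exons all lie left of 1, while RBM4, SF1 and the RNPS1 142-nt exon scatter around 1.

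Other splicing regulators were read from a list of 99 genes in 4 classes, of which 43 have a listed event and 25, with 38 events, could be tested. None of the 38 was called by limma in the 3 lines or averaged over them, against 2.15% of all tested events for the average. At an unadjusted p under 0.05 there were 3 lower and 1 higher for the average, against 9.76% and 2.56% of all tested events. With the block 2 of the 38 passed, both lower, against 3.75% of all tested events lower and 4.27% in either direction, a share near the background. Those were the 57-nt exon of NONO, an RNA-binding paraspeckle protein (averaged -0.072, adjusted p = 0.247, with the block 0.0302), and the 51-nt exon of PUF60, a U2AF-related splicing factor (-0.30, adjusted p = 0.268, with the block 0.0291). By class, the median averaged difference was -0.0067 for 8 events of SR and SR-related proteins, -0.041 for 2 events of kinases and cyclins that act on SR proteins, -0.0475 for 4 events of branch point, 3′ splice site and snRNP factors and -0.01 for 24 events of other RNA-binding regulators, against -0.0067 over all tested events.

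Inclusion was lower in 6 of 6 pairs for 4 of the 38 listed events and higher in 6 of 6 for 0, near the 9.46% and 2.34% of all tested events. Within the lines the listed events of smallest p were not called either. The 147-nt exon of BCLAF1, an SR-related protein, went from 0.66 and 0.88 to 0.44 and 0.51 with the empty vector (-0.295, limma adjusted p = 0.364) and from 0.73 and 0.71 to 0.52 and 0.39 with catalytically dead TIP60 (-0.265, adjusted p = 0.432). With wild-type TIP60 it went from 0.79 and 0.69 to 0.65 and 0.57, so that it was lower in 6 of 6 pairs. PUF60 was lower in 6 of 6 as well, with -0.41 with the empty vector and -0.29 with catalytically dead TIP60 (adjusted p = 0.761 and 1). Other named events were MBNL1 (-0.08 with the empty vector, adjusted p = 0.777), NONO (-0.10 with wild-type TIP60, adjusted p = 1) and RBM33, which had -0.055 with wild-type and 0.085 with catalytically dead TIP60 (adjusted p = 1 and 0.471).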

How the data were processed

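Polyadenylated RNA of MCF10A cells was sequenced in 12 stranded libraries, per the labels. Reads were aligned with STAR to hg38, per the submitters' processing notes; versions, the event annotation, read filters and use of strand are not stated. The deposited MISO summaries list, per library and exon-skipping event, the inclusion level as a fraction with its interval (per the file headers) and the reads that fit 1, both or neither form; the interval was taken as 95%. Middle exons were matched to GENCODE 29 by exact coordinates.

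Inclusion was compared with limma 3.58.1 (R 4.3.3) over all 12 libraries in 6 groups, with a variance trend on mean log2 form-specific reads, robust, for 2695 events, with Benjamini-Hochberg adjustment over all of them and a threshold of 0.05. Event reads were tested as log2(RPM + 0.5) over 4992 events, where RPM is reads that fit at least 1 form per 1000000 such reads; this is a proxy of expression and is not gene counts. Named are all member events, up to 3 other listed regulators of smallest p per line, and any past the threshold; 1 event chosen by this rule is not reported here. Members and lists were chosen with earlier results of these data known. The methods were tested on simulated data.

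Libraries of the same number deviated together from their group means (r between 0.706 and 0.779 over 15 pairs of groups for inclusion, 0.583 and 0.896 for event reads), so a fit with the library number as a replicate block is given where it changes a call or moves a count by over 1.5 times. What the number stands for is not stated. Reads are not independent molecules, so limits from a count of 0 (3 reads) cover counting error only. Read minimum, scale, variance model, scaling, pseudocount, libraries left out and a read-count model were varied.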

Additional observations from a re-analysis of the deposited data

Results flagged for a closer look

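For 4 measures of member events with a test, both pairs of 1 line moved one way with TIP60 siRNA and both pairs of another line the opposite way, and in none did the test of the difference pass. SRSF7 inclusion differed between catalytically dead and wild-type TIP60 by -0.09 (limma adjusted p = 1). The log2 event reads of RBM4 from its own first exon differed by 0.174 between wild-type TIP60 and the empty vector and by -0.364 between catalytically dead and wild-type TIP60, those of SF1 by -0.251 between catalytically dead and wild-type TIP60, and those of the TRA2A 301-nt event from the first exon by 0.998 and -0.637 in the same 2 comparisons as RBM4 (limma adjusted p = 1 for each). The inclusion of the RNPS1 63-nt exon differed by -0.08 between catalytically dead TIP60 and the empty vector; this difference was not tested, and almost no read fitted the included form.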

How the results depend on the processing

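The number of member events called for the averaged difference in inclusion was 2. It was 2 with the replicate block, with a minimum of 20 reads and on primary chromosomes. It was 1 on log2 odds, and 0 with no read minimum, with no variance trend and not robust, with the quasi-binomial read model and with the read ratio. Leaving out 1 library gave 0 to 1, and with the replicate block 0 to 3. With the log2 odds and the block, 1 member event, RBM4 from the RBM14 first exon, was called with catalytically dead TIP60. The direction of both RBM4 events held under each of these; the adjusted p of the own first exon ranged from 0.043 to 0.121 without 1 library (it passed only without the wild-type TIP60 siRNA library 2) and from 0.0174 to 0.0607 with the block, and that of the RBM14 first exon from 0.0206 to 0.11 and from 0.0176 to 0.0735. With the block, both were lost without either control library of the wild-type or the catalytically dead line, the own first exon also without the catalytically dead TIP60 siRNA library 1, and the RBM14 first exon without either wild-type TIP60 siRNA library. SF1 with the empty vector was -0.06, and -0.15 to 0.03 without 1 library (0.03 without control library 2 or TIP60 siRNA library 1). The RNPS1 188-nt exon with wild-type TIP60 was -0.08, and -0.195 to 0.035 (without TIP60 siRNA library 1). The limma fit with the block changed no call of a member event; the read model with the block called SF1 and the RNPS1 188-nt exon and lost RBM4 from the RBM14 first exon.

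Over all events, 58 were called for averaged inclusion, with 30 without a read minimum, 36 with no variance trend, 115 with the block, 164 with the read model and the block, 214 with log2 odds and the block, 7 to 34 without 1 library and 41 to 124 with the block as well. With the empty vector, wild-type and catalytically dead TIP60, 1, 0 and 1 were called, and 4, 4 and 10 with the block; over the other settings the counts ran to 9, 3 and 28, without 1 library to 7, 2 and 8, and with the block as well to 34, 7 and 23. For averaged event reads 37 were called, with 837 with the block, 19 with TMM factors and 0 to 11 without 1 library; the 3 lines had 0, and 154, 1 and 142 with the block. The RNPS1 188-nt exon had 2 libraries a group and 10 to 40 skipped reads per library. Its averaged difference was not separable from the spread between libraries without the block. With the block it passed in the read model (adjusted p = 0.0399) but not by limma (adjusted p = 0.0942). The alternatives with the read model, and the block combined with log2 odds, the read ratio or a library left out, were chosen after seeing the data.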
